A study of Mus musculus with 15 samples.

Results

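The chromosome 17 ribosomal RNA locus comprised all crosslink sites on the plus strand of chr17:39842913-39848888 (mm10, GRCm38, counted from 1), which is the span of the annotated genes Gm26917 and Gm42418 with 100 nt on either side. Across the 6 pooled lists of the series, 9300 of 162273 listed sites lay there, at 3202 different nucleotides. The locus was chosen by the large share of cDNAs it held in these same lists, so that share is given below as a description with no test. Tristetraprolin (TTP, encoded by Zfp36) is a zinc finger protein known to bind AU-rich elements in the 3′UTRs of cytokine mRNAs and to recruit the machinery that removes their poly(A) tails. Individual-nucleotide resolution crosslinking and immunoprecipitation (iCLIP) locates such contacts: UV light joins protein and RNA, reverse transcription tends to stop at the joined base, and the nucleotide before each cDNA is taken as the crosslink site.

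All cells were immortalised bone marrow-derived macrophages of C57BL/6 background that lack endogenous TTP and carry the oncogenes hcmyc and hRasG12V. A tet-inducible vector gave them GFP-TTP (called TTP here) or GFP-TTP-AA (TTP-AA), in which S52 and S178, target sites of the kinase MK2, are changed from serine to alanine, and every group received doxycycline for 6 h. The cells had no lipopolysaccharide (LPS, 0 h) or LPS for 1 h or 4 h. The TTP lists pooled 2, 4 and 2 samples at 0 h, 1 h and 4 h, and the TTP-AA lists pooled 2, 3 and 2, which gives 15 samples. No value per sample and no GFP control list was used, so every difference below is between pooled lists, its interval covers counting error only, and a difference between conditions could not be tested against a spread between replicates. Exons of Zfp36 held 9, 28 and 0 listed cDNAs in the TTP lists and 0, 162 and 0 in the TTP-AA lists.

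Ribosomal RNA is transcribed from tandem gene arrays as one long precursor, in which external and internal transcribed spacers flank the 18S RNA of the small subunit and the RNAs of the large subunit, and the spacers are removed in the nucleolus and degraded. GENCODE M21 annotates 3 features over the locus that matter here. Gm26917 (ENSMUSG00000097971.3), a long non-coding RNA, covers 39843013 to 39846341 on the plus strand with 1 exon of 3329 nt in its longest transcript. The rRNA gene CT010467.1 (ENSMUSG00000106106.2) has a transcript of 1849 nt from 39846353 to 39848201, which GENCODE places on the minus strand. Gm42418 (ENSMUSG00000098178.1), a long non-coding RNA of 1 exon, covers 39846958 to 39848788 on the plus strand, so that its first part overlaps the rRNA annotation. AY036118, a further long non-coding RNA on the minus strand, lies within that overlap. RefSeq lists the same stretch, shifted by 1 nt, as the pseudogene Rn18s-rs5, for which Gm42418 is a synonym.

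The label of a ribosomal RNA locus was checked on the sequence of the plus strand, which was put together from the GENCODE transcripts. From 39846353 the plus strand reads as the known start of eukaryotic 18S rRNA, and this first sequence is shown for that reason:

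rRNA segment, first bases, chr17:39846353-39846377: tacctggttgatcctgccagtagca

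All listed sites were on this strand and 0 were on the minus strand in any list. The stretch from 39846353 to 39848201 is called the rRNA segment, its bases are numbered from 1 at 39846353, and Gm26917 lies directly upstream of it, where the precursor has its 5′ external spacer. No transcript of a gene elsewhere in the annotation matched the locus over 100 nt or more at 90% identity. Every locus position followed by 30 nt of known sequence (5707) began a stretch that occurred once in the locus and in no transcript of another gene. The ribosomal arrays themselves were not searched, because no genome sequence was used, so the ribosomal gene copies from which these cDNAs came cannot be told apart.

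The following 25 nt stretches are those around the positions on which the results below turn, each with the crosslinked nucleotide in capitals and with T for U. They are RNA-sense sequences of the plus strand.

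rRNA segment base 674, chr17:39847014-39847038: agttgctgcagtTaaaaagctcgta
rRNA segment base 675, chr17:39847015-39847039: gttgctgcagttAaaaagctcgtag
rRNA segment base 685, chr17:39847025-39847049: ttaaaaagctcgTagttggatcttg
rRNA segment base 878, chr17:39847218-39847242: ggaataatggaaTaggaccgcggtt
rRNA segment base 1161, chr17:39847501-39847525: gaaaccaaagtcTttgggttccggg
rRNA segment base 1255, chr17:39847595-39847619: gcttaatttgacTcaacacgggaaa
rRNA segment base 1384, chr17:39847724-39847748: ggttaattccgaTaacgaacgagac
rRNA segment base 1585, chr17:39847925-39847949: ggcaggcgcgggTaacccgttgaac
rRNA segment base 1684, chr17:39848024-39848048: gcttgcgttgatTaagtccctgccc
rRNA segment base 1747, chr17:39848087-39848111: tttagtgaggccCacggccctggtg
rRNA segment base 1831, chr17:39848171-39848195: ttccgtaggtgaAcctgcggaagga
Gm26917 base 2159, chr17:39845159-39845183: agggaaagaggcTagcagtggtcat

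The score of a site is the number of unique cDNAs summed over the libraries of its list. An absent site may still have had cDNAs, since those that missed the significance threshold of the site caller are not in the lists. The TTP lists held 33587, 99263 and 29060 cDNAs at 0 h, 1 h and 4 h in all, of which the locus took 4965 (1176 sites), 28443 (2520 sites) and 9315 (1485 sites). The TTP-AA lists held 32617, 174397 and 19167 cDNAs, of which the locus took 3655 (1117 sites), 18256 (2301 sites) and 2502 (701 sites). The locus share was therefore 14.8%, 28.7% and 32.1% for TTP and 11.2%, 10.5% and 13.1% for TTP-AA. The ratio of these shares, TTP over TTP-AA, came to 1.32, 2.74 and 2.46 in order of time. Like the shares that chose the locus, it is a description. A share also depends on how many cDNAs lay elsewhere in its list. Per library pooled, the locus held 2482.5, 7110.8 and 4657.5 cDNAs for TTP and 1827.5, 6085.3 and 1251 for TTP-AA. Those counts depend in turn on the depth of the libraries. When each site was counted once, the shares were 7.35%, 9.71% and 18.4% for TTP and 6.83%, 2.66% and 7.44% for TTP-AA.

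Sites of the locus were deeper than sites elsewhere. A locus site held between 3.27 (TTP-AA 0 h) and 11.3 (TTP 1 h) cDNAs on average, and a site elsewhere held between 1.85 and 3.02. Sites with a single cDNA made up 48.0%, 22.0% and 36.1% of the locus sites in the TTP lists and 48.2%, 26.4% and 52.5% in the TTP-AA lists. Their difference from all other sites ranged from -15.3 percentage points (-19.1 to -11.5, TTP-AA 4 h) to -47.0 points (-48.8 to -45.1, TTP-AA 1 h), with Newcombe 95% intervals. This depth follows from the choice of the locus and is a description. Against other sites in exons of non-coding genes alone, the difference was within counting error at 0 h for both proteins and at 4 h for TTP-AA.

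In windows of 100 nt with at least 20 cDNAs over both proteins, 40 of 46 locus windows at 1 h had a share of the whole list at least 2-fold higher for TTP, beside 25.5% of all windows tested in the series, and 0 had one at least 2-fold higher for TTP-AA, beside 51.9%. At 4 h the counts were 29 of 42 for TTP, beside 44.2%, and 0 for TTP-AA, beside 17.6%. At 0 h they were 5 of 42 for TTP, beside 21.6%, and 6 for TTP-AA, beside 17.4%. The locus was chosen by its share of cDNAs in these same lists, so nothing is read from these counts.

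The boundary of the locus cut through no cluster of sites. The first listed nucleotide of any list was 39842991, inside the upstream flank, and the last was 39848197, inside the rRNA segment. The nearest listed site on the same strand outside lay at least 624490 nt away in every list. The upstream flank held between 4 and 18 sites per list, and at most 0.510% of the locus cDNAs.

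Within the locus, most listed cDNAs lay in the rRNA segment. In the TTP lists it held 82.5% (Wilson 95% interval 81.4 to 83.5), 67.4% (66.8 to 67.9) and 72.8% (71.9 to 73.7) of the locus cDNAs at 0 h, 1 h and 4 h. In the TTP-AA lists it held 71.7% (70.2 to 73.1), 66.0% (65.3 to 66.7) and 82.7% (81.2 to 84.1). Gm26917 held nearly all of the remainder, 17.3%, 32.1% and 27.0% for TTP and 27.9%, 33.6% and 17.1% for TTP-AA. Both proteins thus had their highest Gm26917 share in the 1 h list. The 1 h lists also pooled more libraries and alone name a further site-calling option, which cannot be told apart from the time.

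Per length, the rRNA segment held more listed cDNAs than Gm26917 in every list. It held 221, 1036 and 367 cDNAs per 100 nt in the TTP lists, where Gm26917 held 25.8, 274 and 75.6. In the TTP-AA lists it held 142, 651 and 112 cDNAs per 100 nt, and Gm26917 held 30.6, 184 and 12.8. The ratio of these densities was 8.59, 3.78 and 4.85 for TTP and 4.63, 3.53 and 8.72 for TTP-AA. In numbers of listed nucleotides the order differed at 1 h: 52.8% (TTP) and 48.2% (TTP-AA) of the nucleotides of Gm26917 were listed at that time, and 40.2% and 36.8% of those of the rRNA segment. At 0 h and 4 h, between 8.20% and 24.2% of the nucleotides of Gm26917 and between 22.9% and 36.3% of those of the rRNA segment were listed. The 1 h lists pooled more libraries and were processed with a further option named in their headers, and the part of either in these listed shares was not tested. Listed sites of the rRNA segment also mostly had denser surroundings. For TTP, the lowest number of listed cDNAs within 15 nt of a listed site was 24, 85 and 47 there. In Gm26917 it was 3, 9 and 3. For TTP-AA these numbers were 2, 9 and 9 beside 2, 1 and 2. The part of this in the densities and the listed shares was not tested.

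The part of Gm42418 that runs past the rRNA segment (587 nt) held 0 listed sites in each of the 6 lists. Were every cDNA listed, this would allow up to between 0.0105% (TTP 1 h) and 0.120% (TTP-AA 4 h) of the locus cDNAs. The lists do not bear such a limit, because cDNAs that missed the significance threshold are not listed. The lowest number of listed cDNAs within 15 nt of a listed Gm42418 site was between 2 (TTP-AA 0 h) and 117 (TTP 1 h). All cDNAs listed in Gm42418 thus lay in its overlap with the rRNA segment. The gap of 11 nt between Gm26917 and the rRNA segment and the flank downstream of Gm42418 also held 0 sites. A nucleotide is absent from a list when it had no cDNA or when it missed the significance threshold of the site caller, and the lists do not separate these cases.

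**Figure D1:**
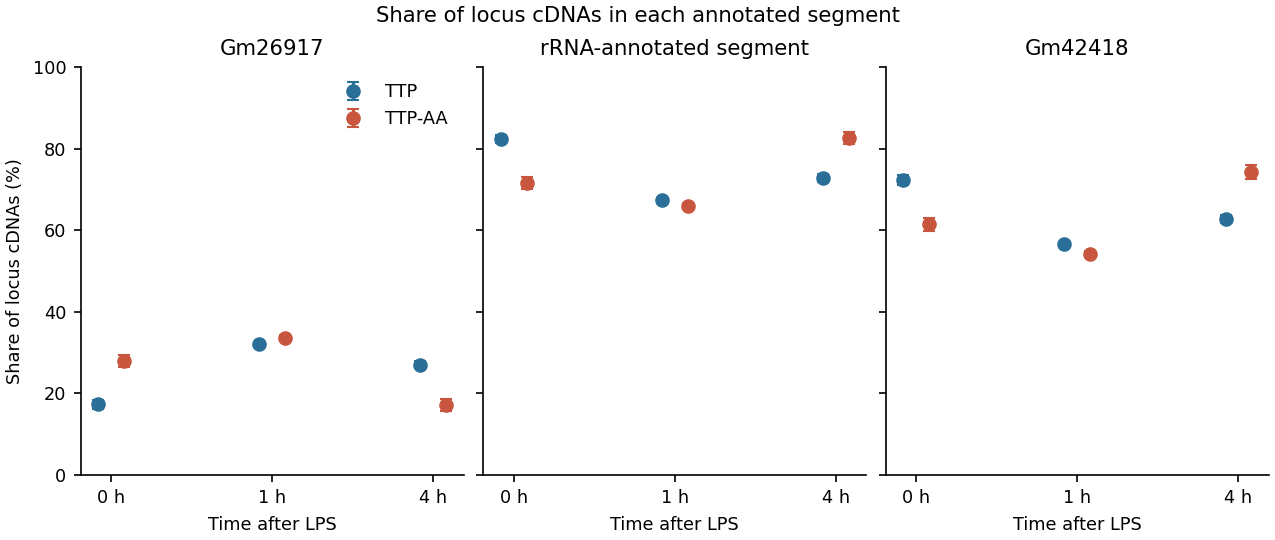
Share of the locus cDNAs (y axis, %) that lay in Gm26917, in the rRNA segment and in Gm42418 (which overlaps the rRNA segment) at 0 h, 1 h and 4 h of LPS (x axis), for the pooled TTP and TTP-AA lists. Points are shares and bars are Wilson 95% intervals for counting error. The points of both proteins lie closest at 1 h, and the order of the proteins is opposite at 0 h and 4 h.

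The share of locus cDNAs in exons of Gm42418 was compared between TTP and TTP-AA at each time. It was 72.3% (71.1 to 73.6), 56.5% (56.0 to 57.1) and 62.9% (61.9 to 63.8) for TTP, and 61.5% (59.9 to 63.1), 54.2% (53.5 to 54.9) and 74.4% (72.6 to 76.1) for TTP-AA. TTP was higher by 10.8 percentage points at 0 h (Newcombe 95% interval 8.81 to 12.8) and by 2.33 points at 1 h (1.40 to 3.25). At 4 h the difference was -11.5 points (-13.5 to -9.51), with TTP-AA the higher. When each site was counted once, the differences were 0.378 points at 0 h (-3.63 to 4.38) and -0.940 points at 1 h (-3.22 to 1.33), both with intervals that included 0, and -16.1 points at 4 h (-20.4 to -11.7). Without the weight of cDNAs the difference was thus within counting error at 0 h and 1 h, and kept its sign at 4 h. The intervals compare 2 pooled lists, and the spread between libraries was not analysed here.

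**Figure D2:**
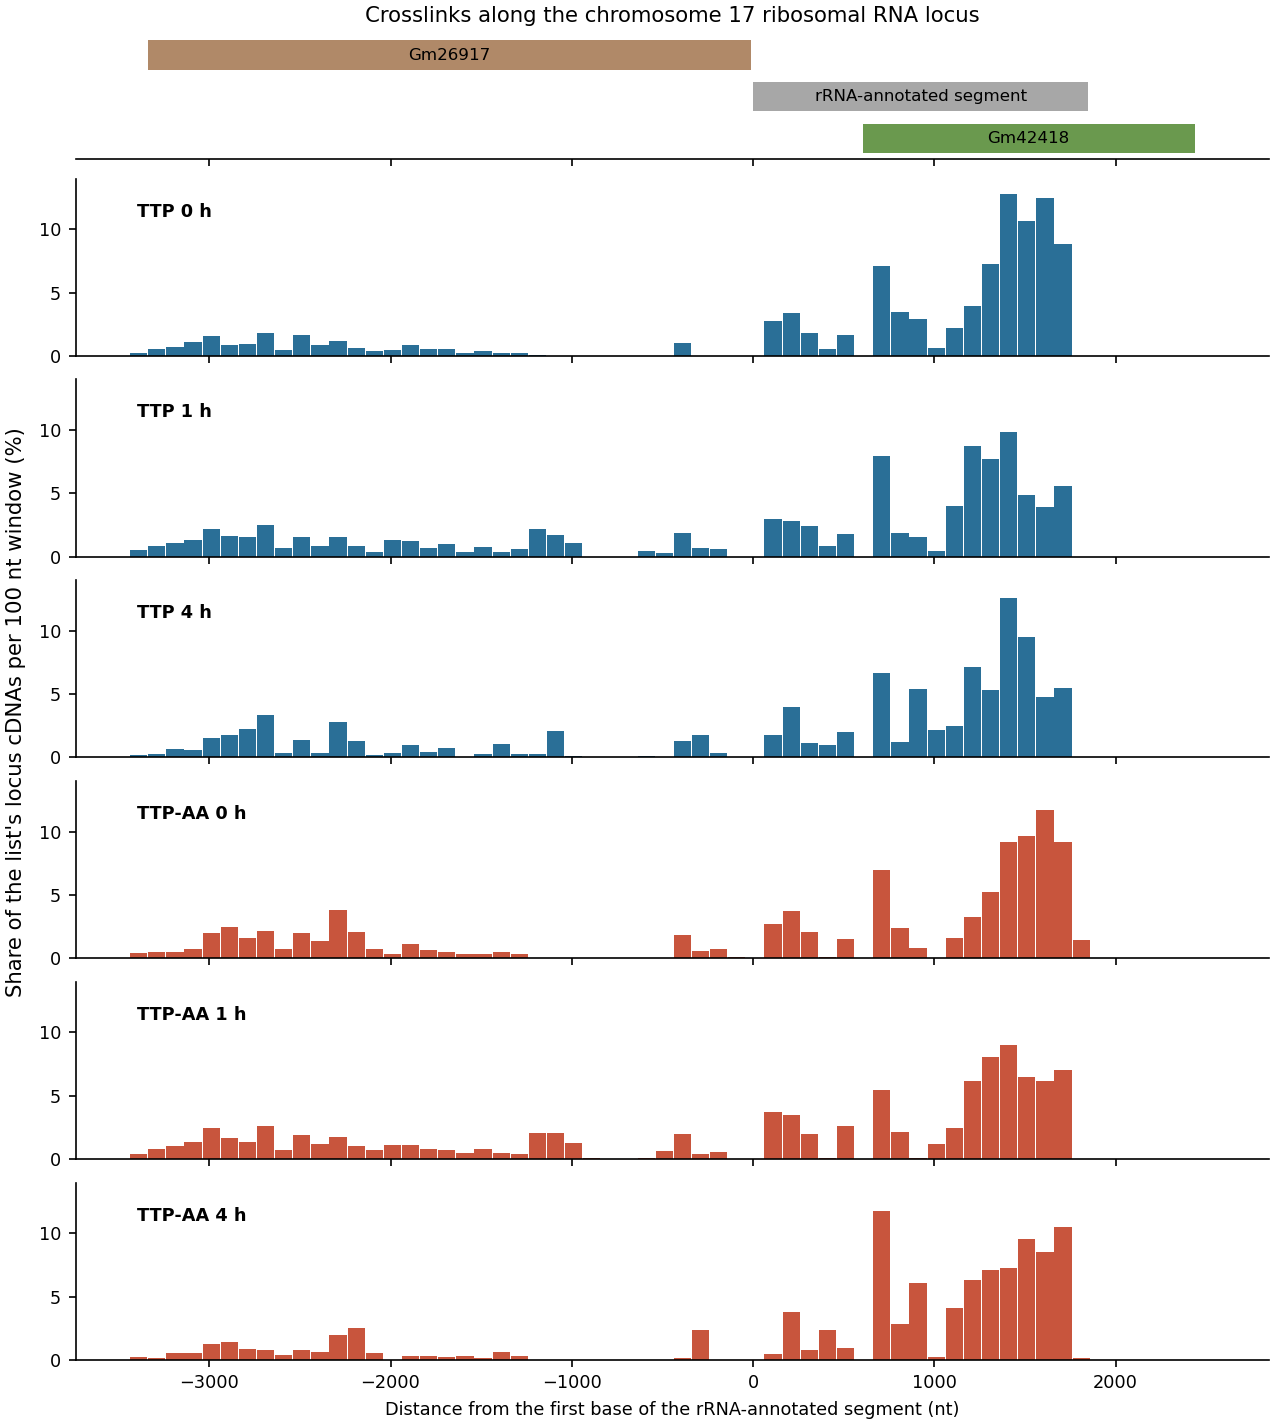
Share of the locus cDNAs of each pooled list (y axis, %) in consecutive windows of 100 nt, against the distance from the first base of the rRNA segment (x axis, nt). Coloured blocks at the top mark the annotated genes, and one row of bars is drawn per list. The tallest bars lie between 661 and 1760 nt in every list. The 3 windows between -1239 and -940 nt hold 4 listed cDNAs or fewer in TTP 0 h, TTP-AA 0 h and TTP-AA 4 h.

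Of the 60 windows of 100 nt in the locus, 50 held a site in at least 1 list and 37 held sites in all 6 lists. The 3 windows with most cDNAs of each list all lay in the part of the rRNA segment that Gm42418 covers. Bases 1361 to 1460 formed the first window of every TTP list, with 12.8% (0 h), 9.86% (1 h) and 12.6% (4 h) of the locus cDNAs, and likewise led for TTP-AA at 1 h, with 9.04%. In the TTP-AA list at 0 h the first window was bases 1561 to 1660 with 11.7%, and at 4 h it was bases 661 to 760 with 11.8%. Bases 1361 to 1760, a run of 4 windows that ends 1 window before the last with any site, held 44.8%, 24.2% and 32.4% of the locus cDNAs in the TTP lists and 39.8%, 28.7% and 35.8% in the TTP-AA lists. Both proteins thus had their highest share at 0 h there, and their lowest at 1 h. The larger number of libraries and the further option of the 1 h lists cannot be told apart from the time. This group of windows, like the further stretches named below, was picked after its values had been seen and is a description.

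Some stretches of the rRNA segment had no listed site in any list, which does not exclude cDNAs that missed the significance threshold. Bases 1 to 97, bases 409 to 515, bases 550 to 660 and bases 706 to 815 had no listed nucleotide in any of the 6 lists. In Gm26917 the longest such run lay from 39845420 to 39845603 (184 nt).

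A stretch of Gm26917 was filled in both 1 h lists and in the TTP list of 4 h. The other lists held few or no listed cDNAs there. The 1 h lists pooled more libraries and alone name a further site-calling option, so neither can be told apart from the time. The stretch, Gm26917 bases 2101 to 2400 (chr17:39845113-39845412), held 1408 TTP cDNAs (4.95% of the locus cDNAs) and 985 TTP-AA cDNAs (5.40%) at 1 h. At 0 h it held 4 cDNAs for TTP and 0 for TTP-AA, the latter allowing up to 0.0821%. At 4 h it held 232 cDNAs (2.49%) for TTP and 0 for TTP-AA, which allows up to 0.120%. Both limits would hold only if every cDNA were listed, and cDNAs at nucleotides that missed the significance threshold are not. Among the 495 nucleotides listed at 1 h in both proteins and at no other time, base 2159 of Gm26917 had most cDNAs, 263 for TTP and 154 for TTP-AA. By comparison, bases 301 to 700 of Gm26917 were filled in every list, with 255, 2250 and 838 cDNAs for TTP (5.14%, 7.91% and 9.00%) and 299, 1482 and 108 for TTP-AA (8.18%, 8.12% and 4.32%).

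Other stretches of the rRNA segment divided the proteins at 1 h. Bases 861 to 960 held 439 TTP cDNAs (1.54%, 1.41 to 1.69) and 17 TTP-AA cDNAs (0.0931%, 0.0581 to 0.149) at 1 h. The same bases held 145 cDNAs (2.92%) and 31 (0.848%) at 0 h, and 505 (5.42%) and 152 (6.08%) at 4 h. Bases 361 to 460 held 27 (0.544%), 248 (0.872%) and 95 (1.02%) TTP cDNAs in order of time, beside 4 (0.109%), 9 (0.0493%) and 59 (2.36%) of TTP-AA. The TTP-AA share was thus the lower of the pair at both stretches at 0 h and 1 h. At 4 h it was the higher, though only slightly at bases 861 to 960, and the 4 h differences were not tested.

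The cDNAs of each list were spread over many nucleotides. The 10 positions with most cDNAs held 15.5%, 15.3% and 13.6% of the locus cDNAs for TTP and 10.9%, 14.2% and 23.5% for TTP-AA. The smallest number of positions that held 50% of the locus cDNAs was 79, 176 and 116 for TTP and 136, 200 and 63 for TTP-AA. The 5 positions with most cDNAs of each list were 17 different nucleotides, all in the part of the rRNA segment that Gm42418 covers, and 12 of them were uridines, 3 cytidines, 2 adenosines and 0 guanosines.

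Base 1255 of the rRNA segment (39847607) had most cDNAs of any position. It held 63, 870 and 121 cDNAs in the TTP lists at 0 h, 1 h and 4 h and 19, 490 and 17 in the TTP-AA lists, and was first in both 1 h lists. In eukaryotic 18S rRNA this conserved stretch is known to carry a hypermodified uridine, and modification was not measured here. Base 1585 (39847937), within the 5 positions with most cDNAs at 0 h and 1 h for both proteins, held 102, 440 and 79 cDNAs in the TTP lists and 40, 361 and 9 in the TTP-AA lists.

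At 0 h, base 685 (39847037) was first in the TTP list and base 1684 (39848036) in the TTP-AA list. Base 685 held 105, 96 and 155 cDNAs for TTP and 38, 61 and 90 for TTP-AA, so that its share of the locus cDNAs was lowest at 1 h for both proteins (0.338% for TTP and 0.334% for TTP-AA). Base 1684 held 53 and 278 cDNAs for TTP and 73 and 278 for TTP-AA at 0 h and 1 h. At 4 h it was listed for neither protein, and its cDNAs there, if any, missed the significance threshold.

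The 4 h lists had their own leading positions. Base 1384 (39847736) was first in the TTP list with 190 cDNAs and held 16 in the TTP-AA list, where the other lists held between 11 and 36. Base 1747 (39848099) was first in the TTP-AA list with 168 cDNAs, 6.71% of its locus cDNAs, held 122 in the TTP list, and was absent from the lists of 0 h and 1 h. Base 878 (39847230) held 151 and 176 TTP cDNAs at 1 h and 4 h, and 74 TTP-AA cDNAs at 4 h. It was absent from the other lists, which does not exclude cDNAs that missed the significance threshold.

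**Figure D3:**
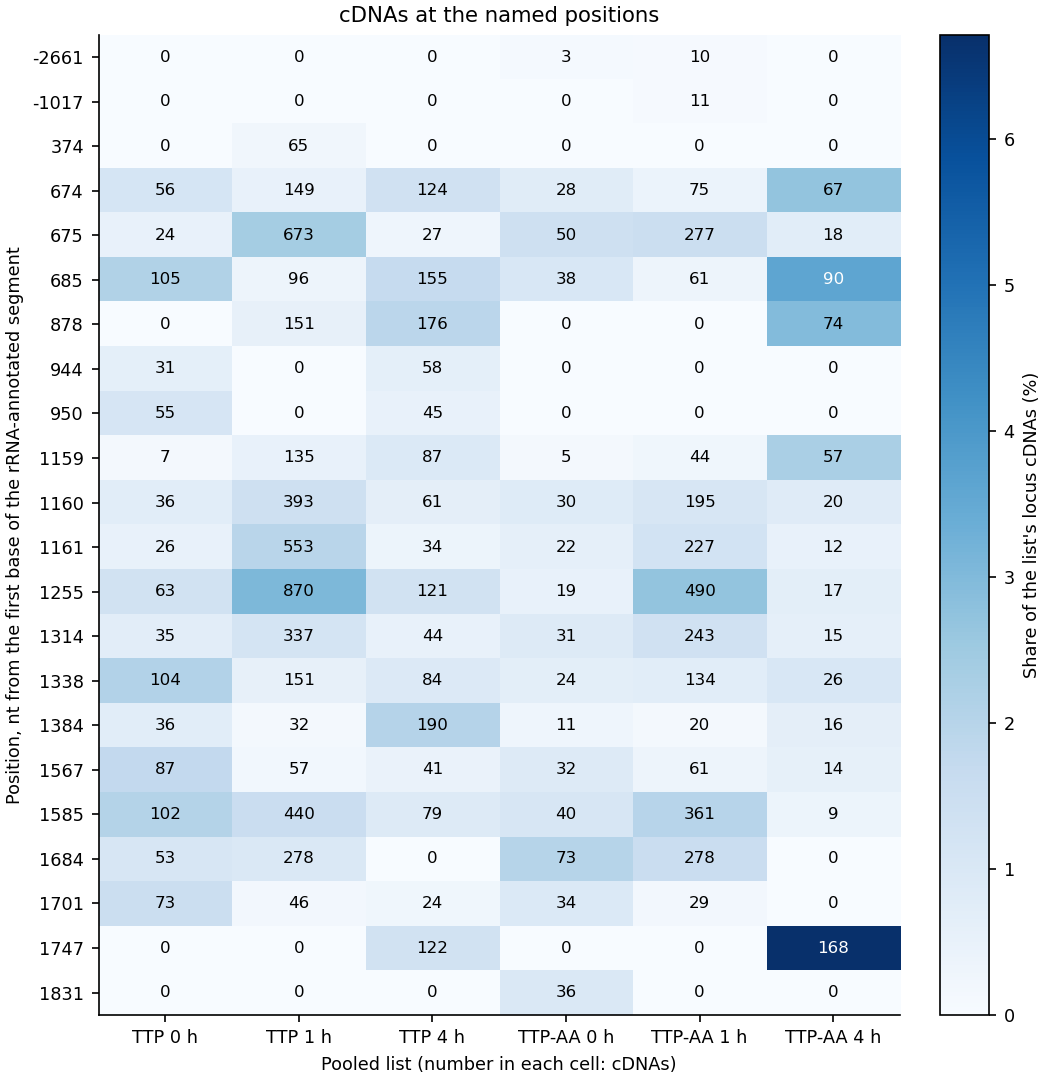
cDNAs at the 22 named positions (rows, nt from the first base of the rRNA segment, negative in Gm26917) in the 6 pooled lists (columns). The number in each cell is the count of listed cDNAs and the shade is its share of the list's locus cDNAs (%). Base 1747 is filled in the 4 h lists alone, and base 1255 has the highest count in both 1 h lists.

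Of the 3202 listed nucleotides, 313 were in all 6 lists and these held between 41.0% (TTP-AA 1 h) and 53.5% (TTP-AA 4 h) of the locus cDNAs of a list. Nucleotides listed for both proteins numbered 2244. A further 614 were listed for TTP alone and held between 3.89% and 5.61% of the locus cDNAs of the TTP lists, and 344 were listed for TTP-AA alone and held between 1.36% and 3.78% of those of the TTP-AA lists. Most of these held few cDNAs, with medians over all lists of 2 (TTP alone) and 1 (TTP-AA alone). The same counts were not taken for sites outside the locus, so nothing particular to the locus is read from them. Among positions of TTP alone, base 374 (39846726) held 65 cDNAs at 1 h, base 950 (39847302) held 55 at 0 h and 45 at 4 h, and base 944 (39847296) held 31 and 58. Among positions of TTP-AA alone, base 1831 (39848183) held 36 cDNAs at 0 h. It lies close to the 3′ end of the rRNA segment, at a pair of adenosines that eukaryotic 18S rRNA is known to carry dimethylated. In Gm26917, TTP-AA alone had bases 679 (39843691), with 3 cDNAs at 0 h and 10 at 1 h, and 2323 (39845335), with 11 at 1 h.

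At the same time point, the proteins shared 753 nucleotides at 0 h (64.0% of the TTP and 67.4% of the TTP-AA sites of the locus), 1914 at 1 h (76.0% and 83.2%) and 556 at 4 h (37.4% and 79.3%). The unequal shares at 4 h went with unequal lists, as TTP had 1485 locus sites and TTP-AA 701. Overlap outside the locus was not computed, so these shares are not read as particular to the locus. Sites within 5 nt of a site of the other protein made up 95.6%, 95.8% and 76.5% of the TTP sites in order of time, beside 94.4%, 97.1% and 94.4% of the TTP-AA sites.

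Profiles over the 100 nt windows were compared by the share of locus cDNAs that lay in other windows in one list than in the other. Between the proteins this share came to 14.3%, 12.2% and 23.9% in the 0 h, 1 h and 4 h lists, where counting error alone would give 4.72%, 2.28% and 5.04%. The other 12 pairs of lists differed by between 20.6% and 30.3%. The proteins were thus closer to each other at 0 h and at 1 h than any pair of lists of different times, and at 4 h they were not. The 0 h and 1 h pairs also kept this place with windows of 50 nt, with windows of 200 nt and with each site counted once. As no list had a replicate, the distance between lists of the same condition is not known. The 1 h lists also shared a site-calling option and pooled more libraries, which cannot be told apart from the time.

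**Figure D4:**
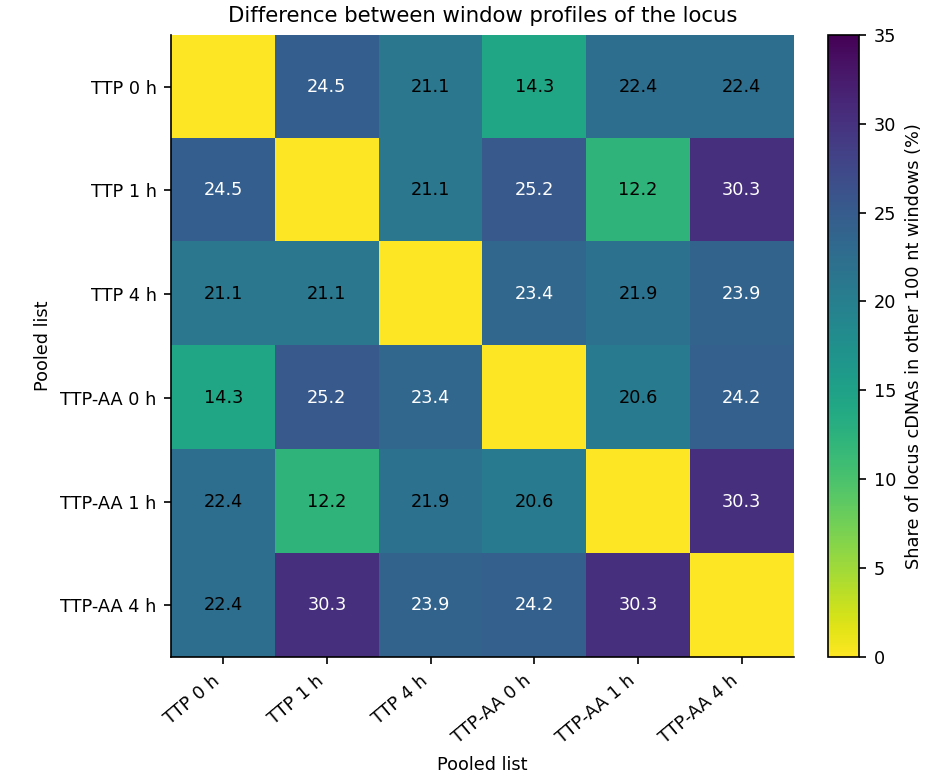
Share of the locus cDNAs (%, number and shade) that lay in other 100 nt windows between each pair of the 6 pooled lists, which form the rows and the columns. The diagonal compares a list with itself and is 0. The 0 h pair (14.3) and the 1 h pair (12.2) are the lowest of the 15 values.

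AU-rich elements were scarce in the locus. Its sequence was 64.9% G or C (69.1% in Gm26917 and 55.4% in the rRNA segment) and held 1 AUUUA pentamer, at bases 225 to 229 of the rRNA segment, with no copy of UAUUUAU, the element that TTP is known to prefer. The pentamer is shown in capitals:

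AUUUA of the locus, chr17:39846567-39846591: ggatgcgtgcATTTAtcagatcaaa

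A motif was counted at a site when it lay wholly within 20 nt of the crosslinked nucleotide. Sites that met this for the pentamer held 88, 362 and 86 cDNAs in the TTP lists and 82, 244 and 48 in the TTP-AA lists. AUUUA lay within 20 nt of between 1.36% (TTP 1 h) and 2.15% (TTP-AA 4 h) of the locus sites, where 0.642% of all locus positions had it. Among other sites in annotated exons it lay within 20 nt of 32.4%, 25.9% and 19.1% of TTP sites and of 27.0%, 32.8% and 15.5% of TTP-AA sites at 0 h, 1 h and 4 h. Locus sites were lower in every list, and the difference ranged from -13.4 points (-15.5 to -11.1, TTP-AA 4 h) to -31.4 points (-31.9 to -30.7, TTP-AA 1 h). Only 37 locus positions could meet the criterion, so this lower share was set by the locus sequence and is a description. These positions all surround 1 pentamer, so the intervals are too narrow if neighbouring sites are not independent. Against other sites in exons of non-coding genes, the difference was -0.797 points at TTP 0 h (-2.03 to 0.454) and 1.02 points at TTP-AA 4 h (-0.543 to 2.52), and it ranged from -7.06 to -2.15 points in the other 4 lists. UAUUUAU lay within 20 nt of between 7.50% and 16.2% of the other exonic sites of a list. The pentamer UGUGU occurred 17 times, 14 of them in Gm26917 and 0 in the rRNA segment. It lay within 20 nt of between 7.89% and 12.0% of the locus sites of a list, where 8.46% of all locus positions had it and between 3.71% and 8.77% of other exonic sites.

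**Figure D5:**
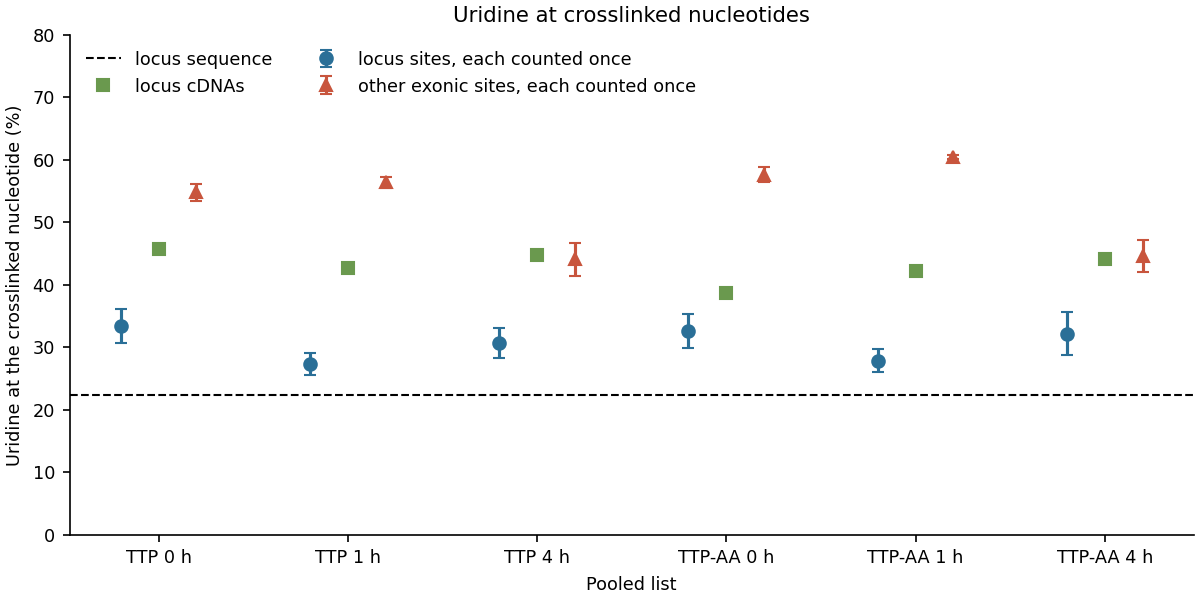
Share of uridine at the crosslinked nucleotide (y axis, %) in each pooled list (x axis), for locus sites, locus cDNAs and other sites in annotated exons. Bars are Wilson 95% intervals and the dashed line is the uridine content of the locus sequence (22.4%). Locus cDNAs lie above locus sites in every list, and other exonic sites lie above locus sites in every list.

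Uridine, the base most readily joined to protein by UV light, was enriched at crosslinked nucleotides of the locus relative to its sequence but less frequent than at other sites. It made up 22.4% of the locus sequence. Of the locus sites, 33.4% (30.7 to 36.1), 27.3% (25.6 to 29.1) and 30.6% (28.3 to 33.0) lay on uridine in the TTP lists and 32.6% (29.9 to 35.4), 27.8% (26.0 to 29.7) and 32.1% (28.8 to 35.7) in the TTP-AA lists. Weighted by cDNAs, the shares were 45.7%, 42.7% and 44.7% for TTP and 38.7%, 42.2% and 44.1% for TTP-AA. Guanosine, 33.4% of the sequence, took between 9.57% and 20.1% of the locus cDNAs.

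Other exonic sites lay on uridine in between 44.1% (TTP 4 h) and 60.4% (TTP-AA 1 h) of cases. The locus was lower in every list. Neighbouring sites share sequence, so the intervals are too narrow if such sites are not independent. The TTP differences, in order of time, were -21.4 points (-24.4 to -18.3), -29.1 points (-31.0 to -27.1) and -13.4 points (-17.0 to -9.90), and those of TTP-AA were -25.1 points (-28.0 to -22.0), -32.6 points (-34.5 to -30.7) and -12.4 points (-16.7 to -8.06). Weighted by cDNAs, the 4 h lists no longer differed beyond counting error (0.521 points, -1.60 to 2.63, for TTP and -0.317 points, -3.05 to 2.42, for TTP-AA). Against other sites in exons of non-coding genes, the difference was within counting error at 0 h for both proteins and at 4 h for TTP.

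Barcodes set an upper limit to the cDNAs counted at a nucleotide. With 4 random bases, a library can distinguish at most 256 cDNAs at 1 nucleotide, which sets a limit of 512, 1024 or 768 for lists of 2, 4 or 3 libraries. At 1 h, base 1255 reached 85.0% of its limit for TTP and 63.8% for TTP-AA. In the 0 h and 4 h lists the first position reached between 14.3% and 37.1%. Assuming equal libraries, its 870 and 490 cDNAs would stand for 1940 and 780 molecules. Over the whole locus this correction added between 1.19% (TTP-AA 0 h) and 9.63% (TTP 1 h) to the cDNAs.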

How the data were processed

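The deposited lists give a score per nucleotide: per the file headers, the authors summed unique cDNAs over the libraries of a group, mapped to GRCm38 with Bowtie, and kept sites at a false-discovery rate under 0.05 in iCount (100 permutations, 15 nt neighbourhood; sign, strand). The headers of the 1 h lists name a further option, regionAsOne. The members and lists were chosen with earlier results of these data known. Named positions were the 5 with most cDNAs per list, and up to 3 in all lists or in 1 protein's lists; windows, the 3 with most cDNAs per list. Shares have Wilson, and differences Newcombe, 95% intervals, called when they exclude 0 and tested on simulated data. No genome sequence was used: bases came from GENCODE M21 transcripts, so base and motif comparisons used the locus sites with known sequence (at least 99.1%) and the other sites in exons (16.7% to 80.4% of a list) instead of all sites. Motifs were searched on the RNA strand. Tools were Python 3.11.15, pandas 2.3.3 and blastn.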

Additional observations from a re-analysis of the deposited data

Results flagged for a closer look

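The difference between TTP and TTP-AA in the share of locus cDNAs in Gm42418 exons differed between the times. It was 10.8 points at 0 h, 2.33 points at 1 h and -11.5 points at 4 h. The 0 h difference exceeded the 1 h difference by 8.49 points (95% interval from the Newcombe limits of both, 6.28 to 10.7), the 1 h difference exceeded the 4 h difference by 13.8 points (11.6 to 16.0), and the 0 h difference exceeded the 4 h difference by 22.3 points (19.5 to 25.1). These intervals cover counting error of pooled lists, so a difference between times was not tested against replicates. With each site counted once, the TTP minus TTP-AA difference was 0.378 points (-3.63 to 4.38) at 0 h and -0.940 points (-3.22 to 1.33) at 1 h. Both of those intervals included 0. The 1 h lists pooled more libraries (4 and 3) than the others (2 each), and their headers alone name the site-calling option regionAsOne, so that neither can be told apart from the time.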

How the results depend on the processing

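No paired analysis was possible because the lists hold sums over libraries, and leaving out a replicate was not possible for the same reason. Counting each site once gave 0.378 and -0.940 points for the TTP minus TTP-AA difference in the Gm42418 share at 0 h and 1 h, and 7.15% for the profile distance at 1 h. Against other sites in exons of non-coding genes, the uridine difference was -1.72 points (TTP 0 h), -3.81 (TTP 4 h) and -3.84 (TTP-AA 0 h), the AUUUA difference -0.797 (TTP 0 h) and 1.02 (TTP-AA 4 h), and the single-cDNA difference -3.92 (TTP 0 h), 0.392 (TTP-AA 0 h) and -4.67 (TTP-AA 4 h). Weighting by cDNAs gave uridine differences of 0.521 (TTP 4 h) and -0.317 (TTP-AA 4 h). The cause was not tested. The profile distance was 7.80% at 1 h with windows of 200 nt and 31.3% at 4 h with windows of 50 nt. Within 5 nt, the overlap was 95.6%, 95.8% and 76.5% of TTP sites and 94.4%, 97.1% and 94.4% of TTP-AA sites. The other interval comparisons, including sites with at least 2 cDNAs and the correction for barcode collisions, kept their direction and stayed on the same side of 0. The locus share ranged from 2.66% to 32.3% over its alternatives. Depth limits the lists of 0 h and 4 h most, where sites with a single cDNA made up 36.1% to 52.5% of the locus sites.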

Other observations

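Neighbouring nucleotides of 2 clusters, picked after their values were seen, took turns between the times. Of the cDNAs at bases 674 and 675 of the rRNA segment, base 674 held 70.0% (Wilson 95% interval 59.2 to 78.9), 18.1% (15.6 to 20.9) and 82.1% (75.2 to 87.4) in the TTP lists at 0 h, 1 h and 4 h, and 35.9% (26.1 to 47.0), 21.3% (17.4 to 25.9) and 78.8% (69.0 to 86.2) in the TTP-AA lists. Of the cDNAs at bases 1159 to 1161, base 1159 held 10.1%, 12.5% and 47.8% for TTP and 8.77%, 9.44% and 64.0% for TTP-AA. In both clusters the 5′ base had its highest share at 4 h in both proteins.

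The last 100 nt window with any site was bases 1761 to 1860. It held 54 listed cDNAs at 14 nucleotides for TTP-AA at 0 h (1.48% of its locus cDNAs). In the 4 h lists it held 3 (TTP) and 4 (TTP-AA), and in the other 3 lists it had no listed site. Nucleotides listed for both proteins at 4 h and at no other time numbered 35 and held 3.34% of the locus cDNAs for TTP and 12.1% for TTP-AA. Those at 0 h alone numbered 10 and held 0.443% and 0.684%.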
